A study of Homo sapiens with 10 samples.

Results

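The 34 genes described here act in cholesterol and fatty acid synthesis and are the symbols of a given list, whose rule uses no measured value. They comprise 18 sterol synthesis enzymes, 5 genes of the sterol regulatory element-binding protein (SREBP) pathway and sterol transport, and 11 genes of fatty acid synthesis and handling, among 19695 genes with a count in either deposited RNA-seq table. All libraries came from T47D, an established human breast cancer cell line of luminal type, so every group is the same line in culture. The cells received control siRNA, *TRPS1* siRNA or *CHD4* siRNA, 2 libraries each, and ribosomal RNA-depleted total RNA was sequenced 72 h after transfection. *TRPS1* encodes an atypical GATA-type zinc finger repressor, and *CHD4* encodes the ATPase of the NuRD chromatin remodeling complex. The labels name an siRNA for *CHD4*, whereas the RNA-seq methods of the study name an shRNA. TRPS1 binding in unsilenced T47D cells was given as 1 list of peaks from 2 chromatin immunoprecipitation (ChIP) and 2 input libraries. Nothing states that the 2 libraries of a group came from separate cultures, so the p-values measure only the spread between these samples.

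Cells make cholesterol from acetyl-CoA through mevalonate, isoprenoid diphosphates, squalene and lanosterol, and they make fatty acids from the same acetyl-CoA through malonyl-CoA. SREBP transcription factors are held in the endoplasmic reticulum when sterol is plentiful. When it is scarce they are carried to the Golgi, cut and sent to the nucleus, where they bind sterol regulatory elements near the enzymes' genes, often next to a CCAAT box bound by NF-Y. Oxysterols activate other regulators, the liver X receptors (LXR), which turn on genes of cholesterol export. Luminal breast cancer cells are known for active fatty acid synthesis.

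The 250 bases before the start of 5 of these genes are shown as examples of the regulatory letters. A link between these letters and the results that follow was not tested. *FDPS* and *SC5D* have a TRPS1 peak at their start. *EBP* and *SCD* were 2 of the 5 members past the study's threshold after *TRPS1* siRNA. *SREBF2* is the member whose window holds CACCCCAC, the searched form of the sterol regulatory element core. The sequences are from RefSeq (GRCh38.p14), read 5′ to 3′ on the plus strand, which is the strand of all 5 genes. Capitals mark 3 motifs on either strand. The NF-Y box is CCAAT. The core of the sterol regulatory element, which SREBP binds, was searched only as CACCCCAC, so other forms of it are not marked. The element of GATA-type zinc fingers, the class TRPS1 belongs to, was searched only as AGATAA. This is 1 form of the consensus WGATAR, in which W is A or T and R is A or G. Other forms, such as the TGATAA in the *EBP* stretch, are not marked.
FDPS, chr1:155308616-155308865: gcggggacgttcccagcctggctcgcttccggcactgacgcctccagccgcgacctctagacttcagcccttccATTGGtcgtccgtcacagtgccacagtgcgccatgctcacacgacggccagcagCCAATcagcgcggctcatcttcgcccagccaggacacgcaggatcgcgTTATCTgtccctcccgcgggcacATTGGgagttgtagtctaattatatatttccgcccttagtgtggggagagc
SC5D, chr11:121292521-121292770: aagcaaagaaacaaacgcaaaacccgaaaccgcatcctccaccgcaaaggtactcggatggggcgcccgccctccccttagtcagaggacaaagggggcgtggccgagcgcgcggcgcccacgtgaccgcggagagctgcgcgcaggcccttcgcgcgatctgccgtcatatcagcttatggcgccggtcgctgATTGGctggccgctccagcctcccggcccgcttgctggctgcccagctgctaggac
EBP, chrX:48521558-48521807: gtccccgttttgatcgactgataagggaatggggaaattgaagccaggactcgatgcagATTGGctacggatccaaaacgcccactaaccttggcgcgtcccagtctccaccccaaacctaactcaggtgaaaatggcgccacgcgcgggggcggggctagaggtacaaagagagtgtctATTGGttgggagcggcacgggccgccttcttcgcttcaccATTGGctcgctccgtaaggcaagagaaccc
SCD, chr10:100346983-100347232: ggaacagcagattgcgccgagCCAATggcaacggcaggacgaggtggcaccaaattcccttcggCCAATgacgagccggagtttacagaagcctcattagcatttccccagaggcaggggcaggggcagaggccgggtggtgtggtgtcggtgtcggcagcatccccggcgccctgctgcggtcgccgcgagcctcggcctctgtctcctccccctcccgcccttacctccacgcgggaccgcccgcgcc
SREBF2, chr22:41832855-41833104: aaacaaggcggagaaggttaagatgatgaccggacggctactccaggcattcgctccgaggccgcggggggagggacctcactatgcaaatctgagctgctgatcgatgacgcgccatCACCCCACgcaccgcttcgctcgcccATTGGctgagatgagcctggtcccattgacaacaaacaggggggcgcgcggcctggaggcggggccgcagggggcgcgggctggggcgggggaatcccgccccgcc
The *FDPS* stretch holds 3 CCAAT matches and 1 AGATAA match, whose first base lies 74 bases before the start. The TRPS1 peak covers 219 of its 250 bases. In *SC5D* the peak covers 231 of the 250 bases and runs across the start, with 1 CCAAT match and no AGATAA. The *EBP* stretch holds 3 CCAAT matches, the *SCD* stretch 2, and the *SREBF2* stretch 1 CCAAT next to 1 CACCCCAC.

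Starts of 30 members were in the RefSeq promoter table, in 42 windows of 300 bases that run from 250 bases before the start, and both strands were searched. CCAAT was found in 26 of these 42 windows (61.9%), against 34.6% of all 35116 promoter windows. Among the sterol enzymes it was in 15 of 20 windows (75.0%), and among the fatty acid genes in 8 of 17 (47.1%). The windows of *MVK* and *NSDHL* held 5 matches each and that of *MSMO1* held 4; in *NSDHL*, 2 of the 5 overlap each other in reverse orientation. CACCCCAC was found in 1 of 42 windows (2.38%), that of *SREBF2*, against 2.79% of all windows. AGATAA was in 2 of 42 (4.76%), those of *FDPS* and *CYP51A1*, against 10.3% of all windows. Among windows of genes in the count tables the share was 7.13%. These shares are descriptions of short letter matches, and other forms of the sterol regulatory and GATA elements were not searched. *ACAT2*, *FDFT1*, *SQLE* and *FASN* had no entry.

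The 6 RNA-seq libraries held 10333138 to 14668358 counts, and 3 counts, taken as the limit of detection, corresponded to 0.197 to 0.288 CPM, the counts scaled to a common library size. Levels below are CPM scaled with the trimmed mean of M-values (TMM) over all 6 libraries. They are not divided by gene length, so levels of different genes are not compared. Control replicate 1 stood apart from all other libraries, with a Pearson correlation of log2 CPM across genes of 0.893 with control replicate 2 and 0.873 to 0.89 with the knockdown libraries. Control replicate 2 had 0.946 to 0.97 with the knockdown libraries. Control replicate 1 had the most counts and yet the fewest genes with a count, 14636 against 16779 to 17796 in the other libraries. For this reason the changes of the members are also given against each control library alone, in the text or in a figure. For genes outside the members this was done only in part. *TRPS1* itself stood at 1448 and 2274 CPM in the control libraries and at 1169 and 723 CPM after *TRPS1* siRNA, without overlap (log2 fold change -0.97, SE 0.39, adjusted p = 0.659). *CHD4* stood at 301 and 286 CPM in control and at 96.0 and 54.4 CPM after *CHD4* siRNA (log2 fold change -1.96, SE 0.42, adjusted p = 0.784).

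T47D was checked against luminal markers, which all had counts in every library, *TFF1* at no more than 3.03 CPM. Their summed level over 8 genes was 13964 and 9423 CPM in control, 4936 and 4837 CPM after *TRPS1* siRNA and 5028 and 3926 CPM after *CHD4* siRNA, so it moved with the groups compared here. Most of that difference lay in the keratins *KRT8*, *KRT18* and *KRT19*, so the sum does not stand for each marker. After *TRPS1* siRNA the keratins and *XBP1* were below both controls, *TFF1* was above both, and *EPCAM*, *GATA3* and *FOXA1* overlapped. After *CHD4* siRNA the keratins, *XBP1*, *GATA3* and *TFF1* were below both, and *EPCAM* and *FOXA1* overlapped. Of all genes 21.6% and 20.0% were lower without overlap, and 22.5% and 19.8% higher. Of 8 markers of fibroblasts, endothelium and leukocytes, *COL1A2*, *COL3A1*, *PECAM1*, *PTPRC* and *CD3E* were at 0 in at least 4 of 6 libraries and at most 0.241 CPM. *VIM* stood at 17.3 CPM in *TRPS1* siRNA replicate 1 and at 1.12 to 2.87 CPM in the other 5 libraries. *CD14* stood at 1.17 and 0.605 CPM in control, 0.288 and 0.723 CPM after *TRPS1* siRNA and 2.34 and 2.41 CPM after *CHD4* siRNA. The sum of the list, mostly from *COL1A1*, was 67.1 to 160 CPM in control, 83.2 to 124 CPM after *TRPS1* siRNA and 63.4 to 92.2 CPM after *CHD4* siRNA. The part of these shifts in the results below was not tested. In bulk RNA, fewer cells of a type and less RNA per cell cannot be told apart.

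The sterol synthesis enzymes were mostly lower in *TRPS1* siRNA cells than in control cells. All 18 passed the filter on low counts, with 61 to 4584 counts a library. Their median log2 fold change was -0.54, against -0.02 over all 12921 genes tested, and 15 of 18 were below 0. The 2 knockdown libraries lay below both control libraries for 8 enzymes (*ACAT2*, *FDPS*, *FDFT1*, *SQLE*, *NSDHL*, *HSD17B7*, *EBP* and *DHCR7*), where 21.6% of all genes did so. They lay above both for 2 (*PMVK* and *SC5D*), where 22.5% of all genes did so. *EBP* and *DHCR7* passed the threshold of the study, a fold change over 2 with an unadjusted p under 0.05, which 3.17% of all genes passed downwards and 2.70% upwards. No gene of the table reached an adjusted p under 0.05 in edgeR's quasi-likelihood test (0% called, 902 genes at an unadjusted p under 0.05). The likelihood ratio test called 34 genes and DESeq2 39, none of them one of the 34. An exact test of 2 libraries against 2 cannot give a two-sided p below 0.3333.

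After *CHD4* siRNA the sterol enzymes were mostly lower as well. Their median log2 fold change was -0.65, against -0.02 over all 12918 genes tested, and 16 of 18 were below 0. The groups did not overlap for 11 enzymes, all lower (*ACAT2*, *MVK*, *MVD*, *FDPS*, *FDFT1*, *SQLE*, *LSS*, *NSDHL*, *HSD17B7*, *EBP* and *DHCR7*), where 20.0% of all genes were lower and 19.8% higher without overlap. *ACAT2* and *EBP* passed the threshold of the study, which 2.85% of all genes passed downwards and 2.60% upwards. The quasi-likelihood test again called 0% of genes at an adjusted p under 0.05 (769 at an unadjusted p under 0.05), the likelihood ratio test 58 and DESeq2 50, with none of the 34 among them. Both comparisons use the same control libraries, so their values are given side by side and are not 2 independent observations.

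**Figure D1:**
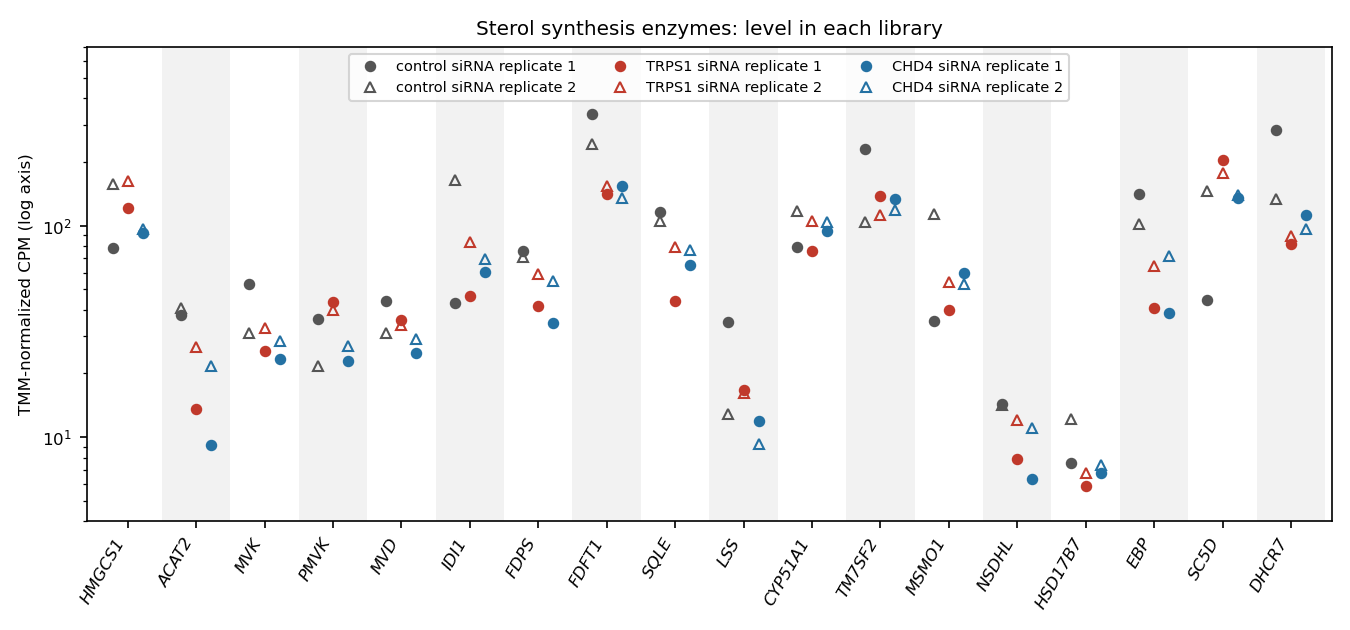
Level of each sterol synthesis enzyme in each library, in TMM-normalized CPM on a log axis. Enzymes follow the order of the pathway, except that *HMGCS1* is placed before *ACAT2*. Grey marks are control siRNA, red *TRPS1* siRNA and blue *CHD4* siRNA, filled circles are replicate 1 and open triangles replicate 2; the control replicates lie far apart for *IDI1* (42.9 and 164 CPM) and close together for *ACAT2* (38.0 and 40.8 CPM).

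At the head of the pathway, *ACAT2*, which joins acetyl-CoA units, stood at 38.0 and 40.8 CPM in the control libraries. It stood at 13.6 and 26.6 CPM after *TRPS1* siRNA and at 9.17 and 21.6 CPM after *CHD4* siRNA. All 4 knockdown libraries were below both controls, and within each knockdown replicate 1 was the lower. The log2 fold change was -0.96 (SE 0.44, adjusted p = 0.659) for *TRPS1* siRNA and -1.34 (SE 0.50, adjusted p = 0.792) for *CHD4* siRNA. RefSeq places *SOD2* and *TCP1* over part of *ACAT2*, and whether the counting used strand is not stated. *HMGCS1*, which makes HMG-CoA, stood at 78.1 and 157.5 CPM in control, 121 and 163 CPM after *TRPS1* siRNA and 92.0 and 96.8 CPM after *CHD4* siRNA. Both knockdown groups overlapped with control (log2 fold change 0.28, SE 0.44, and -0.31, SE 0.44). *PMVK*, the second kinase after mevalonate, stood at 36.3 and 21.8 CPM in control, 43.4 and 39.8 CPM after *TRPS1* siRNA and 22.8 and 26.9 CPM after *CHD4* siRNA. *TRPS1* siRNA cells were above both controls, *CHD4* siRNA cells between them.

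Around squalene, *FDPS*, the farnesyl diphosphate synthase, stood at 75.6 and 71.5 CPM in control. It stood at 41.8 and 59.1 CPM after *TRPS1* siRNA (log2 fold change -0.54, SE 0.35) and at 34.8 and 54.8 CPM after *CHD4* siRNA (-0.71, SE 0.41). *FDFT1*, the squalene synthase, had the most counts of the 18 and stood at 337 and 244 CPM in control, 141 and 154 CPM after *TRPS1* siRNA and 154 and 135 CPM after *CHD4* siRNA. Neither gene overlapped with control in either knockdown. *SQLE*, whose oxidation of squalene is a rate-setting step, stood at 116 and 105 CPM in control, at 44.2 and 79.3 CPM after *TRPS1* siRNA and at 65.1 and 76.4 CPM after *CHD4* siRNA. Its log2 fold changes were -0.83 (SE 0.40) and -0.64 (SE 0.36), again without overlap. *LSS*, which closes the sterol rings to give lanosterol, differed from these: control replicate 1 stood at 35.02 CPM and control replicate 2 at 12.9 CPM, with 16.7 and 16.1 CPM after *TRPS1* siRNA and 11.97 and 9.25 CPM after *CHD4* siRNA. *TRPS1* siRNA cells thus lay between the controls and *CHD4* siRNA cells below both.

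At the end of the pathway, *EBP*, the sterol isomerase, stood at 141 and 102 CPM in control, 40.8 and 64.5 CPM after *TRPS1* siRNA and 38.8 and 72.2 CPM after *CHD4* siRNA. Its log2 fold change was -1.20 (SE 0.40, adjusted p = 0.659) and -1.12 (SE 0.44, adjusted p = 0.792), and no knockdown library reached either control. *DHCR7*, which reduces the last double bond to give cholesterol, stood at 284 and 134 CPM in control, 81.7 and 89.6 CPM after *TRPS1* siRNA and 112 and 96.2 CPM after *CHD4* siRNA. Both groups were below both controls, with a log2 fold change of -1.28 (SE 0.44, adjusted p = 0.659) and -0.998 (SE 0.45, adjusted p = 0.792). *SC5D*, the sterol desaturase that acts just before *DHCR7*, went the other way: 44.7 and 146 CPM in control, 204 and 177 CPM after *TRPS1* siRNA and 136 and 139 CPM after *CHD4* siRNA. *TRPS1* siRNA cells were above both controls (log2 fold change 1.00, SE 0.56, adjusted p = 0.665), whereas *CHD4* siRNA cells lay between them (0.54, SE 0.55).

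The 8 enzymes not described singly (*MVK*, *MVD*, *IDI1*, *CYP51A1*, *TM7SF2*, *MSMO1*, *NSDHL* and *HSD17B7*) had log2 fold changes from -0.66 to -0.10 after *TRPS1* siRNA and from -0.71 to 0.03 after *CHD4* siRNA. Of these 8, *IDI1* and *MSMO1* had the control libraries farthest apart, with a log2 difference of control replicate 1 minus control replicate 2 of -1.92 and -1.66, and all their knockdown libraries lay between the 2 controls. RefSeq places *MMAB* over part of *MVK* and *WDR37* over part of *IDI1*.

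The choice of control library set the direction for part of the sterol enzymes. Against control replicate 1 alone, both *TRPS1* siRNA libraries were below the control for 12 of 18 enzymes (44.2% of all genes) with a median log2 fold change of -0.55. Against control replicate 2 alone it was 11 of 18 (40.2% of all genes) with a median of -0.49. The fitted change had the same sign against both controls for 9 enzymes below 0 and 2 above 0, and the opposite sign for 7 (*HMGCS1*, *MVD*, *IDI1*, *LSS*, *CYP51A1*, *TM7SF2* and *MSMO1*). For *CHD4* siRNA both libraries were below control replicate 1 for 13 enzymes (42.8% of all genes; median -0.71) and below control replicate 2 for 16 (39.1% of all genes; median -0.60). The sign was below 0 against both controls for 11 and opposite for 7. *EBP* had -1.42 and -0.94 against the 2 controls after *TRPS1* siRNA, and *DHCR7* had -1.73 and -0.64. *SC5D* had 2.09 and 0.39, and *LSS* had -1.09 and 0.35. After *CHD4* siRNA *ACAT2* had -1.29 and -1.38, *LSS* -1.71 and -0.27, and *SC5D* 1.63 and -0.06. In these fits the lone control is assumed to vary like the knockdown libraries.

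**Figure D2:**
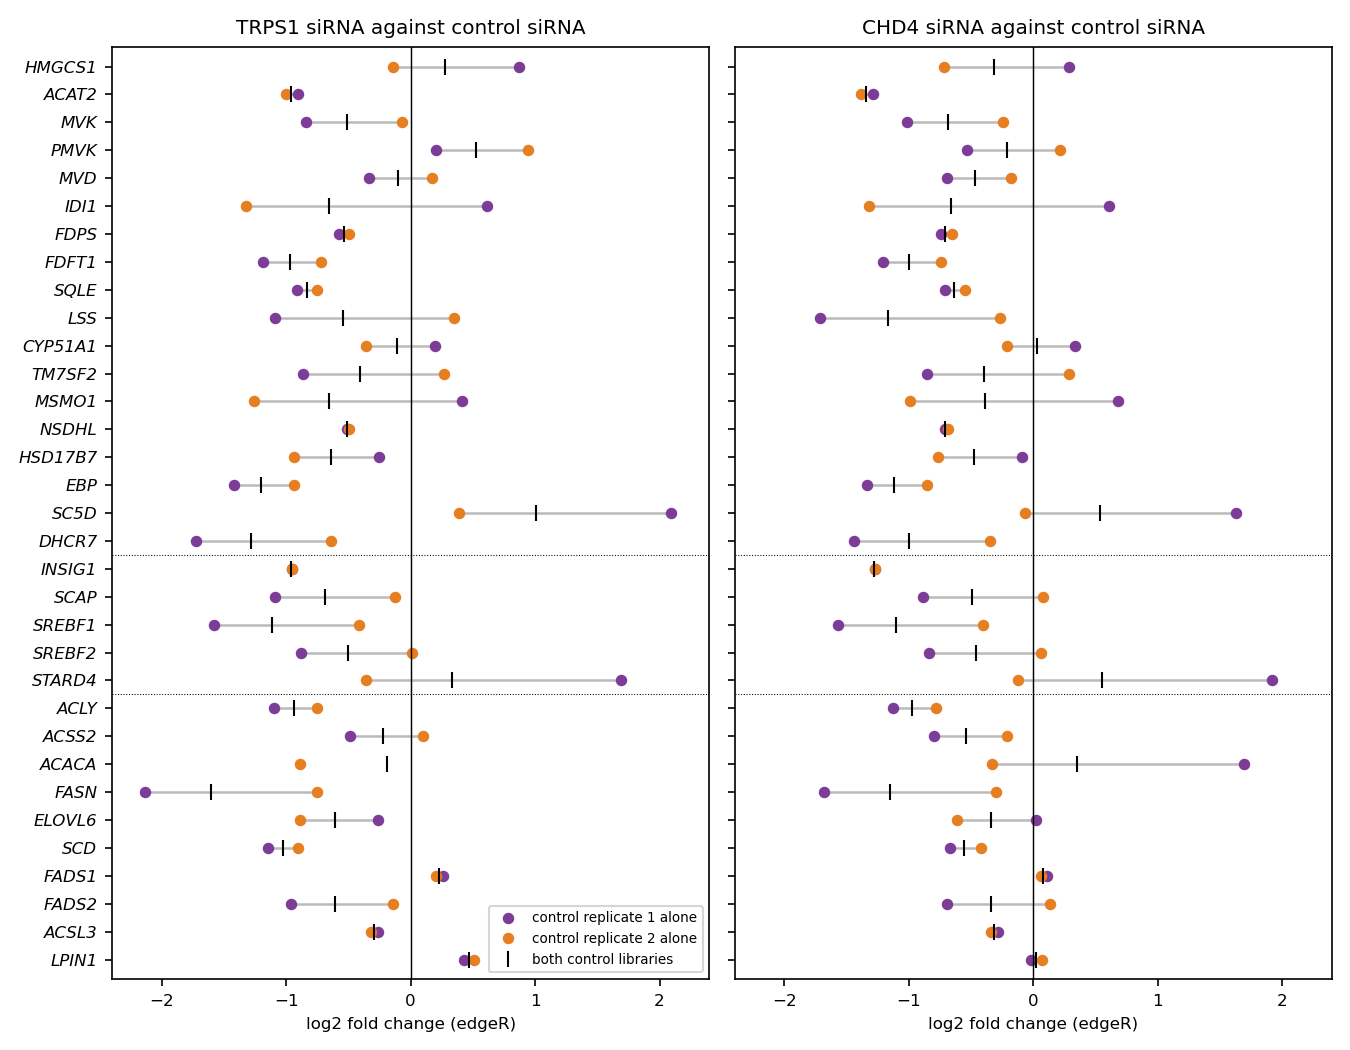
Log2 fold change of the 33 members tested, for *TRPS1* siRNA (left) and *CHD4* siRNA (right), against control replicate 1 alone (purple), control replicate 2 alone (orange) and both control libraries (black bar). Dotted lines separate sterol enzymes (top), SREBP pathway genes and fatty acid genes (bottom); *ACAT2*, *INSIG1* and *SQLE* have nearly the same value against either control, whereas *SC5D*, *STARD4* and *FASN* do not, and *ACACA* had too few counts for a fit of *TRPS1* siRNA against control replicate 1.

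Of the SREBP pathway genes, *INSIG1* was the one with the closest control libraries. *INSIG1*, which retains SREBP in the endoplasmic reticulum and is itself an SREBP target, stood at 45.3 and 45.6 CPM in control, 17.7 and 28.9 CPM after *TRPS1* siRNA and 21.4 and 15.9 CPM after *CHD4* siRNA. All knockdown libraries were below both controls, with a log2 fold change of -0.96 (SE 0.40, adjusted p = 0.659) and -1.28 (SE 0.40, adjusted p = 0.792). The value against each control alone was -0.95 and -0.95 for *TRPS1* siRNA and -1.27 and -1.27 for *CHD4* siRNA. *SREBF1*, the gene of the SREBP form that mainly drives fatty acid synthesis, stood at 142 and 63.6 CPM in control, 44.1 and 50.6 CPM after *TRPS1* siRNA and 50.2 and 44.9 CPM after *CHD4* siRNA. Neither group overlapped with control (log2 fold change -1.11, SE 0.46, and -1.10, SE 0.47), and the size depended on the control: -1.58 and -0.42 for *TRPS1* siRNA, -1.57 and -0.40 for *CHD4* siRNA. *RAI1* overlaps *SREBF1* in RefSeq.

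*SREBF2*, the gene of the form that mainly drives sterol synthesis and the one with the CACCCCAC shown above, stood at 291 and 157 CPM in control, 172 and 143 CPM after *TRPS1* siRNA and 180 and 143 CPM after *CHD4* siRNA. Both groups overlapped with control, and against control replicate 2 alone the log2 fold change was 0.01 and 0.06. *SCAP*, which escorts SREBP to the Golgi, was below both controls after *TRPS1* siRNA (93.5 and 93.0 CPM against 198 and 102 CPM) and overlapped after *CHD4* siRNA (122 and 90.8 CPM). *STARD4*, a carrier of cholesterol between membranes, stood at 6.46 and 26.8 CPM in control and at 18.3 to 26.3 CPM in the knockdown libraries, between the controls. Over the 5 genes the median log2 fold change was -0.69 after *TRPS1* siRNA, with 3 lower without overlap, and -0.49 after *CHD4* siRNA, with 2 lower. None was higher without overlap. Of all genes 21.6% were lower without overlap after *TRPS1* siRNA and 20.0% after *CHD4* siRNA. *SREBF1* passed the threshold of the study in both comparisons and *INSIG1* after *CHD4* siRNA. That threshold was passed downwards by 3.17% of all genes after *TRPS1* siRNA and by 2.85% after *CHD4* siRNA.

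The fatty acid genes were lower in part. Of 11 genes, 10 passed the filter on low counts; *ME1*, which supplies NADPH, had 1 to 18 counts a library and at most 1.73 CPM and was not tested. The median log2 fold change of the 10 was -0.45 after *TRPS1* siRNA and -0.34 after *CHD4* siRNA. After *TRPS1* siRNA 6 were lower without overlap (*ACLY*, *FASN*, *ELOVL6*, *SCD*, *FADS2* and *ACSL3*) and 2 higher (*FADS1* and *LPIN1*), where 21.6% of all genes were lower and 22.5% higher, so the share of higher genes was near the background. After *CHD4* siRNA 5 were lower (*ACLY*, *ACSS2*, *FASN*, *SCD* and *ACSL3*) and none higher, where 20.0% of all genes were lower and 19.8% higher. *FASN* and *SCD* passed the threshold of the study downwards after *TRPS1* siRNA, as 3.17% of all genes did. After *CHD4* siRNA *FASN* did so, as did 2.85% of all genes.

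With both control libraries, *FASN* had the largest log2 fold change of the 33 members tested after *TRPS1* siRNA; against control replicate 2 alone it was *IDI1*, with -1.32. *FASN*, the fatty acid synthase, stood at 2859 and 1103 CPM in control, 638 and 664 CPM after *TRPS1* siRNA and 801 and 971 CPM after *CHD4* siRNA. No knockdown library reached the lower control. The log2 fold change was -1.60 (SE 0.49, adjusted p = 0.659) for *TRPS1* siRNA and -1.15 (SE 0.49, adjusted p = 0.792) for *CHD4* siRNA. Against control replicate 1 alone it was -2.13 and -1.68, and against control replicate 2 alone -0.75 and -0.30. *ACLY*, which splits citrate to cytosolic acetyl-CoA and so feeds both pathways, was lower in every knockdown library (387, 467, 414 and 416 CPM) than in control (916 and 723 CPM), with a log2 fold change of -0.94 (SE 0.32) and -0.97 (SE 0.35). *ACACA*, whose product malonyl-CoA is the committed step, was close to the limit of the filter, with 13 and 52 counts in control (0.955 and 3.93 CPM), 26 and 27 counts after *TRPS1* siRNA and 37 and 34 counts after *CHD4* siRNA. Its groups overlapped in both comparisons and no direction can be read from it.

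Among the genes that modify the fatty acid chain, *SCD*, which introduces the first double bond, stood at 2058 and 1744 CPM in control, 830 and 1027 CPM after *TRPS1* siRNA and 1439 and 1130 CPM after *CHD4* siRNA. Both knockdown groups were below both controls (log2 fold change -1.03, SE 0.31, adjusted p = 0.659, and -0.56, SE 0.34, adjusted p = 0.799). *SCD* was among the members with little dependence on the control library, with -1.15 and -0.90 against each control after *TRPS1* siRNA. *FADS2*, the first desaturase of polyunsaturated fatty acids, stood at 44.6 and 25.3 CPM in control, 24.3 and 21.4 CPM after *TRPS1* siRNA and 27.9 and 26.9 CPM after *CHD4* siRNA. *FADS1*, the next desaturase and its neighbour on chromosome 11, stood at 87.5 and 91.0 CPM in control, 92.4 and 116 CPM after *TRPS1* siRNA and 87.7 and 99.6 CPM after *CHD4* siRNA. The neighbours thus had opposite signs after *TRPS1* siRNA (log2 fold change -0.61, SE 0.42, and 0.23, SE 0.33), with the difference for *FADS1* smaller than its SE. The annotations of the 2 genes overlap.

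*LPIN1*, a phosphatidate phosphatase of triglyceride synthesis, stood at 30.5 and 28.9 CPM in control, 45.4 and 36.8 CPM after *TRPS1* siRNA and 32.6 and 27.3 CPM after *CHD4* siRNA. Both *TRPS1* siRNA libraries were above both controls (log2 fold change 0.47, SE 0.35), and the *CHD4* siRNA libraries lay on either side of them. *ACSS2*, which activates acetate, stood at 90.1 and 60.3 CPM in control, 66.0 and 62.5 CPM after *TRPS1* siRNA and 53.2 and 49.7 CPM after *CHD4* siRNA, below both controls after *CHD4* siRNA alone. *ELOVL6*, the elongase of palmitate, and *ACSL3*, which activates fatty acids for use, had log2 fold changes of -0.61 and -0.29 after *TRPS1* siRNA and -0.34 and -0.32 after *CHD4* siRNA.

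**Figure D3:**
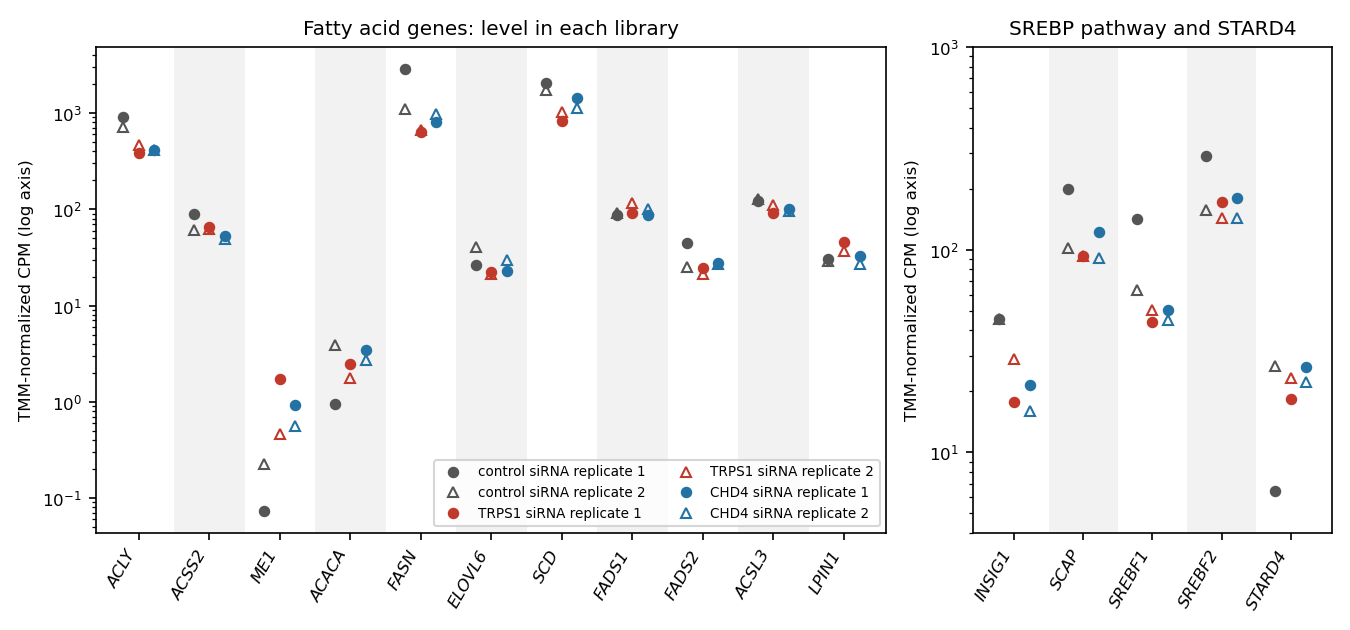
Level of each fatty acid gene (left) and each SREBP pathway gene and *STARD4* (right) in each library, in TMM-normalized CPM on a log axis, with the same marks as for the sterol enzymes. *FASN* and *ACLY* are highest in both control libraries, *INSIG1* has control marks on top of each other at 45.3 and 45.6 CPM, and *ME1* and *ACACA* lie at 3.93 CPM or less.

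Against control replicate 1 alone, both *TRPS1* siRNA libraries were below the control for 7 of 10 fatty acid genes (44.2% of all genes) and above it for 3 (45.5% of all genes). Against control replicate 2 alone it was again 7 below (40.2% of all genes) and 3 above (40.6%). The medians were -0.48 (9 genes with a fit) and -0.54. The sign was below 0 against both controls for 6, above 0 for 2 and opposite for *ACSS2*. For *CHD4* siRNA both libraries were below control replicate 1 for 6 genes (42.8% of all genes; median -0.48) and below control replicate 2 for 7 (39.1% of all genes; median -0.31). The sign was below 0 against both for 5, above 0 for *FADS1* and opposite for 4 (*ACACA*, *ELOVL6*, *FADS2* and *LPIN1*). *LPIN1* had 0.43 and 0.51 against the controls after *TRPS1* siRNA and -0.02 and 0.07 after *CHD4* siRNA.

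Single libraries moved the number of genes past the study's threshold. After *TRPS1* siRNA it was 5 of 33 (*EBP*, *DHCR7*, *SREBF1*, *FASN* and *SCD*), where 5.87% of all genes passed in either direction. It was 3 without control replicate 1 (8.11% of all genes), 11 of 32 without control replicate 2 (33.6% of all genes), and 1 without replicate 1 or without replicate 2 of *TRPS1* siRNA (0.591% and 1.44% of all genes). After *CHD4* siRNA it was 5 (*ACAT2*, *EBP*, *INSIG1*, *SREBF1* and *FASN*), where 5.45% of all genes passed. It was 3 without control replicate 1 (7.75% of all genes), 13 without control replicate 2 (31.0%), 0 without *CHD4* siRNA replicate 1 (0.725%) and 1 without *CHD4* siRNA replicate 2 (1.80%). The shares of members without control replicate 2 were thus near those of all genes. All members past the threshold with all libraries present were lower. Of the counts without control replicate 2, 2 of 11 and 3 of 13 were higher. Without that library the quasi-likelihood test called 18 members after *TRPS1* siRNA and 15 after *CHD4* siRNA at an adjusted p under 0.05, when it called 47.4% and 30.3% of all genes.

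To ask where the knockdowns differed, the 2 *CHD4* siRNA libraries were set against the 2 *TRPS1* siRNA libraries, without the controls. Over 13143 genes tested the quasi-likelihood test called 0% at an adjusted p under 0.05, with a lowest adjusted p of 0.0903 and 2023 genes at an unadjusted p under 0.05. The likelihood ratio test called 570 and DESeq2 456, none of them one of the 34. With the replicate numbers as a block, the quasi-likelihood test called 3372 genes, 8 of them members, as given under the processing below. The median log2 fold change of *CHD4* siRNA against *TRPS1* siRNA was -0.10 for the sterol enzymes, 0.04 for the SREBP pathway genes and 0.12 for the fatty acid genes, against 0.00 over all genes. The groups did not overlap for 5 sterol enzymes that were lower after *CHD4* siRNA (*HMGCS1*, *PMVK*, *MVD*, *LSS* and *SC5D*) and 1 that was higher (*DHCR7*), and for 2 fatty acid genes that were lower (*ACSS2* and *LPIN1*) and 5 that were higher (*ACACA*, *FASN*, *ELOVL6*, *SCD* and *FADS2*). Of all genes 24.1% were lower and 22.8% higher without overlap, so the shares of lower sterol enzymes and lower fatty acid genes were near the background.

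The sterol enzymes with the largest differences were all lower after *CHD4* siRNA. *PMVK* had a log2 fold change of -0.73 (SE 0.17, adjusted p = 0.149), *LSS* -0.62 (SE 0.23, adjusted p = 0.286), *HMGCS1* -0.58 (SE 0.19, adjusted p = 0.23) and *SC5D* -0.46 (SE 0.15, adjusted p = 0.228). These 4 sterol enzymes reached an unadjusted p under 0.05, as 7.33% of all genes did downwards. Upwards 8.07% did so, and among the 34 it was *FASN* with 0.45 (SE 0.18, adjusted p = 0.306). *SCD* followed with 0.48 (SE 0.22, adjusted p = 0.373). *ACACA* had the largest value, 0.55, with an SE of 0.38 on 26 to 37 counts a library. For *LPIN1* it was -0.45 (SE 0.19, adjusted p = 0.349). The count at an unadjusted p under 0.05 was 5 of 33 with all 4 libraries, where 15.4% of all genes did so. The share of members was thus near the background. Leaving out either *TRPS1* siRNA library lowered both the count and the share of all genes.

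**Figure D4:**
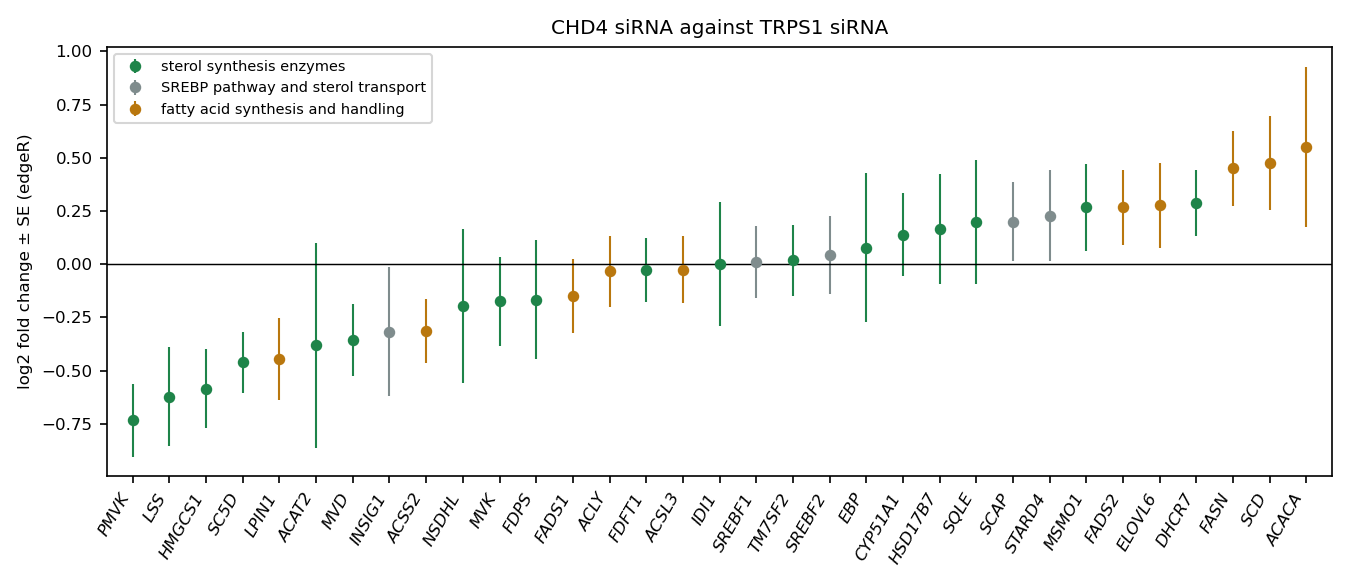
Log2 fold change of *CHD4* siRNA against *TRPS1* siRNA for the 33 members tested, in order of size, with the standard error from edgeR as bars. Green marks are sterol enzymes, grey SREBP pathway genes and ochre fatty acid genes. Values run from -0.73 for *PMVK* to 0.55 for *ACACA*. No member reached an adjusted p under 0.05 in edgeR's quasi-likelihood test as run here, without a replicate block.

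TRPS1 peaks lay within 5 kb of a start for 6 of the 30 members with a start in the table (20.0%), against 3.65% of 13709 genes of the count tables. Within 1 kb it was 4 (13.3%, against 2.68%) and within 50 kb 8 (26.7%, against 11.8%). The peak list has no replicate error, and the members at peaks were not set apart by a test. At *FDPS* the peak chr1:155308489-155308834 ended 32 bp before the start, and at *SC5D* the peak chr11:121292540-121292900 covered both annotated starts. *ACSS2* had a peak, chr20:34875927-34876270, between its 2 starts, 938 bp after the first and 342 bp before the second. A single peak, chr11:61815026-61815232, lay 971 bp from the nearest start of *FADS2* and 1771 bp from that of *FADS1*. It falls inside the annotated *FADS1* gene. At *LPIN1* the peak chr2:11744149-11744469 lay 2163 bp before the most downstream of its 3 starts. *PMVK* and *TM7SF2* had a peak at 36840 and 15034 bp. Of the 4 members with no start in the table, *FDFT1* had 1 peak inside the gene, and *ACAT2*, *SQLE* and *FASN* had none, the nearest to *FASN* being 12362 bp away.

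The 6 members with a peak within 5 kb of a start did not share a direction. After *TRPS1* siRNA *SC5D*, *LPIN1* and *FADS1* were above both controls, *FDPS* and *FADS2* below both, and *ACSS2* overlapped. Their log2 fold changes ran from -0.61 for *FADS2* to 1.00 for *SC5D*. After *CHD4* siRNA none was above both controls, and *FDPS* and *ACSS2* were below both. Of the 3 above both controls after *TRPS1* siRNA, *SC5D* and *LPIN1* were lower after *CHD4* siRNA than after *TRPS1* siRNA without overlap, whereas *FADS1* overlapped.

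Genes of neighbouring lipid pathways were read from lists of their own. Of 8 genes of the LXR and sterol efflux list, 2 were higher without overlap after *TRPS1* siRNA and 4 after *CHD4* siRNA, with 1 and 0 lower. Of all genes 22.5% and 19.8% were higher without overlap, so the share of higher genes after *TRPS1* siRNA was near the background. Of all genes 21.6% and 20.0% were lower. The lower gene after *TRPS1* siRNA was *ABCG1* (log2 fold change -0.21, SE 0.36), which was higher without overlap after *CHD4* siRNA (0.72, SE 0.40). *ABCA1*, the cholesterol exporter, stood at 5.87 and 10.5 CPM in control, 41.0 and 31.4 CPM after *TRPS1* siRNA and 90.7 and 48.4 CPM after *CHD4* siRNA. All 4 knockdown libraries were above both controls, with a log2 fold change of 2.15 (SE 0.45, adjusted p = 0.659) and 3.09 (SE 0.53, adjusted p = 0.749). *MYLIP*, a ubiquitin ligase that removes lipoprotein receptors, stood at 16.8 and 20.2 CPM in control, 30.2 and 27.0 CPM after *TRPS1* siRNA and 72.0 and 40.6 CPM after *CHD4* siRNA (0.63, SE 0.36, and 1.61, SE 0.45). Directly compared, both were higher after *CHD4* siRNA than after *TRPS1* siRNA, by 0.95 (SE 0.33) and 0.99 (SE 0.29) on the log2 scale. *NR1H2* and *NR1H3*, the LXR genes, overlapped with control in both knockdowns.

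In the SREBP processing list, *MBTPS1*, the protease that makes the first cut in SREBP, was lower without overlap in both knockdowns (890 and 624 CPM in control, 487 and 536 CPM, 455 and 423 CPM), with a log2 fold change of -0.56 (SE 0.33) and -0.78 (SE 0.36). Against control replicates 1 and 2 alone *MBTPS1* had -0.80 and -0.28 after *TRPS1* siRNA, and -1.01 and -0.49 after *CHD4* siRNA. *INSIG2* had 0.25 and -0.21 with both controls and overlapped. Of 13 further genes of elongation, desaturation and fatty acid activation, 10 were tested after *TRPS1* siRNA and 11 after *CHD4* siRNA, with medians of -0.33 and -0.23. *SLC25A1*, the mitochondrial citrate exporter upstream of *ACLY*, stood at 235 and 131 CPM in control, 83.1 and 89.4 CPM after *TRPS1* siRNA and 75.6 and 78.1 CPM after *CHD4* siRNA. It passed the threshold of the study in both (log2 fold change -1.08, SE 0.39, and -1.25, SE 0.42), as 3.17% and 2.85% of all genes did downwards. Against control replicates 1 and 2 alone it had -1.44 and -0.60 after *TRPS1* siRNA, and -1.60 and -0.76 after *CHD4* siRNA. *TECR* had -0.93 after *TRPS1* siRNA and overlapped with control, and *SCD5* had 2.05 after *CHD4* siRNA at no more than 2.99 CPM.

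**Figure D5:**
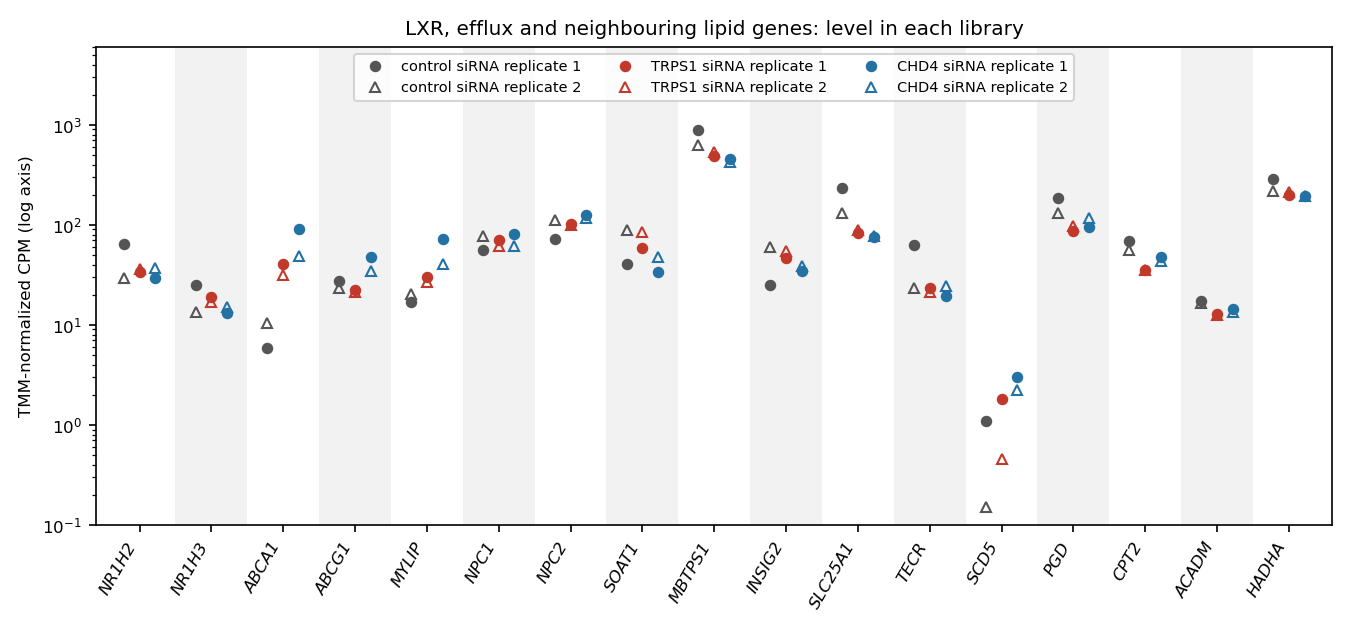
Level in each library of the 8 LXR and sterol efflux genes and of genes with the largest log2 fold changes in the other lipid lists, in TMM-normalized CPM on a log axis, with the same marks as for the sterol enzymes. *ABCA1* is at 5.87 and 10.5 CPM in control and at 90.7 and 48.4 CPM after *CHD4* siRNA, while *SLC25A1* is highest in the control libraries, at 235 and 131 CPM.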

How the data were processed

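RNA-seq was analysed in 6 T47D libraries (control siRNA, *TRPS1* siRNA and *CHD4* siRNA, 2 each, grouped by their labels) and TRPS1 ChIP-seq as 1 peak list from 2 ChIP and 2 input libraries. Per the study's methods, the RNA-seq reads were trimmed and mapped by STAR, and HTSeq (0.9.0) gave reads per gene; the authors deposited these raw counts in 1 table per knockdown. ChIP-seq reads were mapped with BWA (0.7.12-r1039) and peaks came from MACS2 (2.1.1). The deposited list gives start and end positions, and the submitters' processing notes name hg38. The annotation, the strand setting of the counting and the pooling of ChIP replicates are not given in the sources used here.

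Tests ran on all genes of a comparison with over 2 CPM in at least 2 of 4 libraries (12921, 12918 and 13143 genes), in edgeR (4.0.16, R 4.3.3) with TMM factors, the quasi-likelihood F-test, a prior count of 0.125 and Benjamini-Hochberg adjustment. The SE was taken as the absolute log2 fold change over the root of F. The direct comparison joined both tables by symbol. The control counts were identical in both tables for all 18262 shared genes. Groups are said not to overlap when both libraries of one lie above both of the other in TMM-normalized CPM over all 6 libraries. Library totals were 10333138 to 14668358 counts, and the limit of 3 counts covers counting error only. The SE also holds the spread between libraries that the fit estimated.

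The members are those of the given list, whose rule uses no measured value. The lists they were sorted into and the other lists were chosen with earlier results of these data known. Values in every library are given for the 6 members with the largest non-overlapping change in each comparison, those with a peak within 5 kb of a start, and *SREBF1*, *SREBF2*, *INSIG1*, *SQLE*, *ACACA*, *FASN* and *SCD*, and in other lists for the 2 largest changes; a gene of the list of NADPH supply is not reported here. Other members printed with values were chosen after their values were seen. Gene positions, starts and sequences are from RefSeq (GRCh38.p14). Alternatives were RLE factors, library sizes alone, other filters, the likelihood ratio test, DESeq2 (1.42.0), all 6 libraries in 1 fit, a replicate block, leaving out each library, and other peak distances. Figures were drawn with matplotlib (3.10.9) in Python 3.11.15.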

Additional observations from a re-analysis of the deposited data

How the results depend on the processing

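Medians of the sterol and fatty acid genes against control stayed below 0 under every alternative run. Library sizes alone moved the median of all genes from -0.02 to 0.10 after *TRPS1* siRNA and to 0.11 after *CHD4* siRNA; relative to it, the number of members below the median was the same. The members past the study's threshold were 5 of 33 in each knockdown. After *TRPS1* siRNA they were 3 with library sizes alone and 8 with the replicate block (9.45% of all genes), and 1 to 11 with single libraries left out. After *CHD4* siRNA they were 1 with library sizes alone (5.26% of all genes) and 8 with no filter on low counts (7.39% of all genes). Leaving out single libraries moved both counts, as given above. Between the knockdowns, the members at an unadjusted p under 0.05 were 5 (15.4% of all genes). They were 0 with all 6 libraries in 1 fit (4.18% of all genes) and 13 with the replicate block (35.1% of all genes). Under the settings run, 0 to 1 passed the study's threshold. With all 4 libraries in the main fit it was 0, where 205 of 13143 genes passed downwards and 278 upwards. The median of the fatty acid genes there (0.12) was -0.027 with no filter and -0.025 with over 2 CPM in every library, and 0.054 to 0.168 with single libraries left out. Adjusted p-values under 0.05 against control appeared with a control library left out: for 18 and 15 members without control replicate 2, and for 1 (*MSMO1*) after *TRPS1* siRNA without control replicate 1. The cause was not tested.

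Replicate numbers were not taken as pairs. Over 13269 genes the deviations of same-numbered libraries correlated at 0.073 (control and *TRPS1* siRNA), 0.015 (control and *CHD4* siRNA) and 0.631 (*TRPS1* siRNA and *CHD4* siRNA). With the block, no member reached an adjusted p under 0.05 against control, and 8 did between the knockdowns (*HMGCS1* with a log2 fold change of -0.57, *PMVK* -0.73, *LSS* -0.64, *SC5D* -0.46, *ACSS2* -0.31, *LPIN1* -0.45, *FASN* 0.45 and *SCD* 0.47), when 3372 genes of 13143 did. *ACACA* after *TRPS1* siRNA was 0.08 with the block.

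With single libraries left out, some log2 fold changes crossed 0. Members outside the rule for values in every library did so between the 2 controls. After *TRPS1* siRNA these were *MVD*, *IDI1*, *CYP51A1*, *TM7SF2*, *MSMO1* and *STARD4*. *IDI1* had 0.61 and -1.32 against control replicates 1 and 2 alone, and *STARD4* 1.69 and -0.35. After *CHD4* siRNA they were *IDI1*, *CYP51A1*, *TM7SF2*, *MSMO1*, *SCAP*, *STARD4* and *ELOVL6*. Members within that rule ranged as follows. After *TRPS1* siRNA *HMGCS1* ranged from -0.14 to 0.87, *LSS* from -1.09 to 0.35, *SREBF2* from -0.88 to 0.011, *ACSS2* from -0.48 to 0.10 and *ACACA* from -0.89 to 0.048. After *CHD4* siRNA *HMGCS1* ranged from -0.72 to 0.28, *PMVK* from -0.53 to 0.21, *SC5D* from -0.065 to 1.63, *SREBF2* from -0.84 to 0.058, *ACACA* from -0.33 to 1.69, *FADS2* from -0.69 to 0.13 and *LPIN1* from -0.10 to 0.17. Between the knockdowns *ACAT2* ranged from -1.12 to 0.22, *FDPS* from -0.52 to 0.13, *SQLE* from -0.17 to 0.71, *EBP* from -0.42 to 0.47, *INSIG1* from -0.63 to 0.10, *SREBF1* from -0.092 to 0.135, *SREBF2* from -0.14 to 0.22 and *FADS1* from -0.31 to 0.047. Depth limits *ME1* and *ACACA*, with 1 to 18 and 13 to 52 counts a library.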

Other observations

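*PGD*, which makes NADPH in the pentose phosphate pathway, stood at 187 and 132 CPM in control, 86.8 and 96.7 CPM after *TRPS1* siRNA and 94.6 and 116 CPM after *CHD4* siRNA. It was below both controls in each knockdown, with log2 fold changes of -0.79 (SE 0.35) after *TRPS1* siRNA and -0.59 (SE 0.38) after *CHD4* siRNA. Neither change reached an adjusted p under 0.05 in edgeR's quasi-likelihood test. Against control replicate 2 alone the log2 fold changes of *PGD* were -0.51 and -0.30. The part of control replicate 1 and of the lower luminal keratins in these values was not tested.

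Of the 6 genes of fatty acid oxidation, 4 were lower without overlap after *TRPS1* siRNA and 3 after *CHD4* siRNA, with medians of -0.27 and -0.20; of all genes 21.6% and 20.0% were lower without overlap. *CPT2*, which reforms acyl-CoA inside mitochondria, stood at 68.3 and 55.8 CPM in control, 35.7 and 35.8 CPM after *TRPS1* siRNA and 47.9 and 43.1 CPM after *CHD4* siRNA, with log2 fold changes of -0.79 (SE 0.34) and -0.44 (SE 0.38). *ACADM* had -0.40 after *TRPS1* siRNA and *HADHA* -0.37 after *CHD4* siRNA.

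Among the LXR and efflux genes, 2 had a TRPS1 peak at a start and were chosen after their values were seen. At *SOAT1*, which esterifies cholesterol for storage, the peak chr1:179293430-179293655 ended 142 bp before the start. It stood at 41.0 and 87.9 CPM in control, 59.0 and 84.5 CPM after *TRPS1* siRNA and 33.9 and 47.2 CPM after *CHD4* siRNA, and was lower after *CHD4* siRNA than after *TRPS1* siRNA without overlap (log2 fold change -0.82, SE 0.25). At *NR1H3* the peak chr11:47248707-47248940 covered an annotated start, and its log2 fold change was -0.09 (SE 0.44) after *TRPS1* siRNA and -0.43 (SE 0.47) after *CHD4* siRNA, overlapping with control.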
